A study of Mus musculus with 15 samples.

Results

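H3K4me3 in the livers of the 6 mice fed the yellow (YD) or purple (RD) corn diet was compared with that of the 9 mice fed the standard (SD), calorie-restricted (CR) or high-fat (HF) diet, in all 15 libraries of the series and with 1 library per mouse. The libraries were divided by their diet labels alone. All mice were females, labelled as C57BL/6 and described in the study's methods as C57BL/6J, with 3 mice on each of 5 diets. The labels give an age of 12 months, whereas the study describes 10 months of feeding that began at 3 months of age, and this difference was not resolved here. The mice came from several litters, and which mouse came from which litter was not used here. In YD and RD the maize of the standard chow was replaced by seed powder of near-isogenic corn lines, of which the purple line contains anthocyanins and the yellow line does not. SD was the standard chow, which itself contains maize, CR was a reduced daily amount of the same chow, and HF was another diet of high fat content. The corn mice therefore differed from the SD mice in the corn line, from the CR mice also in energy intake and from the HF mice also in macronutrients.

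H3K4me3, the trimethylated form of lysine 4 on histone H3, is laid down by the SET1 and MLL methyltransferase complexes around the transcription start sites (TSSs) of genes that are transcribed or poised for transcription, and it is removed by demethylases of the KDM5 family. In mammals it is strongest at promoters rich in CpG dinucleotides, and in liver it covers the promoters of housekeeping genes and of hepatocyte genes for plasma proteins and intermediary metabolism. It was measured by PAT-ChIP, which immunoprecipitates chromatin out of liver that had been fixed in formalin and embedded in paraffin. Each deposited list holds the regions enriched for reads in 1 liver (peaks, which SICER2 calls islands), with a score for each. A protein-coding gene is called marked in a library when a peak lies within 1 kb of any of its annotated TSSs (mm10), and the comparison of 6 with 9 libraries counts how many of each carry the mark.

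The promoters of 4 genes with the strongest contrast in either direction are given as examples of the sequences concerned. They are taken from RefSeq (GRCm38.p6, the assembly of mm10), run 5′ to 3′ on the strand of the gene, and span 250 bases before to 50 bases after the start. Capitals mark matches on either strand to 8 short motifs that were searched, which are TATAAA (the TATA box), CCAAT (bound by NF-Y), GGGCGG (the GC box), CCGGAAG (the core of ETS factor sites), TGACGTCA (the cAMP response element), TGACNNNGC (the antioxidant response element), CACGTG (the E-box) and the heat shock element. Stip1 (chr19:7039977-7040276, minus strand), Mllt6 (chr11:97663162-97663461, plus strand) and Kat6b (chr14:21499520-21499819, plus strand) had a peak in no corn library and in all 9 others. Mucl2 (chr15:103899263-103899562, minus strand) had a peak in 4 corn libraries and in no other.
Stip1: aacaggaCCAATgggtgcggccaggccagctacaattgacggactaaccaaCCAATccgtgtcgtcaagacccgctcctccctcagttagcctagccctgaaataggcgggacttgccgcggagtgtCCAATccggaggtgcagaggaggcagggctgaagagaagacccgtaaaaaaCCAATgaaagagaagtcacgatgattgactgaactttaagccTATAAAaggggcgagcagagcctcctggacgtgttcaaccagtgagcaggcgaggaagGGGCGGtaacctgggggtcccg
Mllt6: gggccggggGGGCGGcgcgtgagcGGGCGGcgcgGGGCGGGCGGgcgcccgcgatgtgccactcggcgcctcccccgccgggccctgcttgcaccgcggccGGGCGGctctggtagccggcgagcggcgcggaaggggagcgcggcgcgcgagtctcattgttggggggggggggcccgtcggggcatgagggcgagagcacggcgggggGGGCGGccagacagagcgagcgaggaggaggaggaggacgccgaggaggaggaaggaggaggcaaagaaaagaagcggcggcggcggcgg
Kat6b: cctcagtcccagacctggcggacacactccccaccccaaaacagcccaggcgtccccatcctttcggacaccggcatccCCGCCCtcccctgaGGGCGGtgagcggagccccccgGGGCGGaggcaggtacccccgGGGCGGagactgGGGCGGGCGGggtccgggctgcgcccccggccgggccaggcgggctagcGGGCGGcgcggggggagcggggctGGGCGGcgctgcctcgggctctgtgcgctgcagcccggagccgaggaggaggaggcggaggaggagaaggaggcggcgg
Mucl2: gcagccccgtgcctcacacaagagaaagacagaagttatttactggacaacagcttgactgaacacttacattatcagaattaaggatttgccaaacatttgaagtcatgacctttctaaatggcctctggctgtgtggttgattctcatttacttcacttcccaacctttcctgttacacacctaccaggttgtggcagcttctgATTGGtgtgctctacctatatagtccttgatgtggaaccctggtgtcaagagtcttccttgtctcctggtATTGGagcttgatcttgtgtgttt
The Mllt6 and Kat6b promoters held 46 and 32 CpG dinucleotides and only GC boxes among the marked motifs, whereas the Stip1 promoter held 16 CpGs, 4 CCAAT boxes, a TATA box at base 221 of the window and a GC box. The Mucl2 promoter held 1 CpG and a pair of CCAAT boxes. In the 9 libraries with a peak at Stip1, the peaks shared the stretch chr19:7039201-7040600, which contains the whole printed window. At Kat6b the shared stretch was chr14:21499801-21500400, which reaches only the last bases of the printed window. At Mllt6 and Mucl2 no stretch was common to the peaks of all libraries that had a peak.

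The libraries did not differ in depth beyond their spread and carried the marks of liver. From the steps of the peak scores, 8337057 to 15449854 reads were recovered behind the corn lists and 5589269 to 11548776 behind the others (two-sided exact permutation test over 5005 assignments of the labels, p = 0.176). Of 8 defining hepatocyte markers, 4 to 8 were marked in each corn library and 6 to 8 in each other library, and Ttr, Hnf4a and Trf were marked in all 15. Markers of other liver cells were rarer. The corn libraries had 0 to 1 and the other libraries 0 to 3 of 7 Kupffer cell markers, with Marco, Vsig4, Timd4 and Csf1r marked in none, and likewise 0 to 1 against 0 to 3 of 6 stellate cell markers. Of 6 sinusoidal endothelial markers, 0 to 1 were marked on corn and 0 to 6 on the other diets, and of 7 cholangiocyte markers 0 to 1 and 1 to 3. The part of these cells in the results below was not tested, and in a bulk liver fewer cells of a type and less mark per cell cannot be told apart. HF_1 stood apart with 11 of 15 genes of a longer Kupffer and macrophage list, against 0 to 2 in the remaining other libraries, and RD_2 had 32131 peaks against 7825 to 14454 in the remaining corn libraries. Serial numbers in the library names formed no consecutive run that held corn and other libraries together, so that an order of preparation, if these numbers record one, and diet cannot be told apart.

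The corn livers had fewer marked genes. Of the 21755 protein-coding genes, 24.3%, 26.5% and 17.5% were marked in YD_1 to YD_3 and 31.2%, 34.7% and 27.8% in RD_1 to RD_3. The other livers had 43.1%, 43.0% and 32.7% in SD, 35.5%, 46.5% and 48.2% in CR, and 54.6%, 47.6% and 51.5% in HF. The groups overlapped only in that SD_3 lay below RD_2. The mean was 27.0% ± 5.92 (SD, n = 6) on corn and 44.7% ± 7.09 (SD, n = 9) on the other diets, a difference of -17.7 percentage points that was larger than the spread between mice (exact permutation test, p = 0.000799). It was -16.5 points without HF_1 and -19.3 points without RD_2. The names of 10 libraries carry the word ChIP and those of 5 the word PATChIP. Among the 5 corn and 5 other libraries with the ChIP form the difference was -18.2 points (exact permutation test, p = 0.0159), and the PATChIP form holds only 1 corn library, RD_1, with 4 others. YD alone differed from the 9 other libraries by -22.0 points (exact permutation test, p = 0.00455) and RD alone by -13.5 points (exact permutation test, p = 0.00909).

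The number of peaks did not separate the groups, with 14563 ± 8918 (SD, n = 6) on corn and 18589 ± 7103 (SD, n = 9) on the other diets (difference -4026, exact permutation test, p = 0.354). Without RD_2 the difference was -7540 (exact permutation test, p = 0.0345), and without CR_3, the longest list, it was -2131. On corn 44.9% of peaks lay within 1 kb of a TSS and on the other diets 56.5% (difference -11.6 points, exact permutation test, p = 0.147, or -7.65 points without RD_2), which did not exceed the spread. It did so when the 7825 highest-scoring peaks were taken from every list (-28.9 points, exact permutation test, p = 0.0002, the smallest p these samples allow).

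Where the mark was present in every mouse, its peaks were narrower on corn. At the 2059 genes marked in all 15 libraries, the mean peak width was 3112, 1906 and 1500 bp in the YD mice and 2149, 3102 and 2056 bp in the RD mice. It was 3111, 2573 and 2797 bp in SD, 2714, 3112 and 3468 bp in CR, and 4107, 3093 and 3606 bp in HF. YD_1 and RD_2 lay among the other diets and the remaining corn libraries below all of them. The group means were 2304 ± 660 bp (SD, n = 6) and 3176 ± 484 bp (SD, n = 9), a difference of -871.6 bp (exact permutation test, p = 0.0126). It was -755 bp without HF_1 and -1032 bp without RD_2. Of these genes 1992 had a narrower and 60 a wider mean peak on corn. The difference was -857 bp within the ChIP form of name (exact permutation test, p = 0.0873) and -651 bp without HF (exact permutation test, p = 0.0649), neither of which passed the threshold of 0.05.

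**Figure D1:**
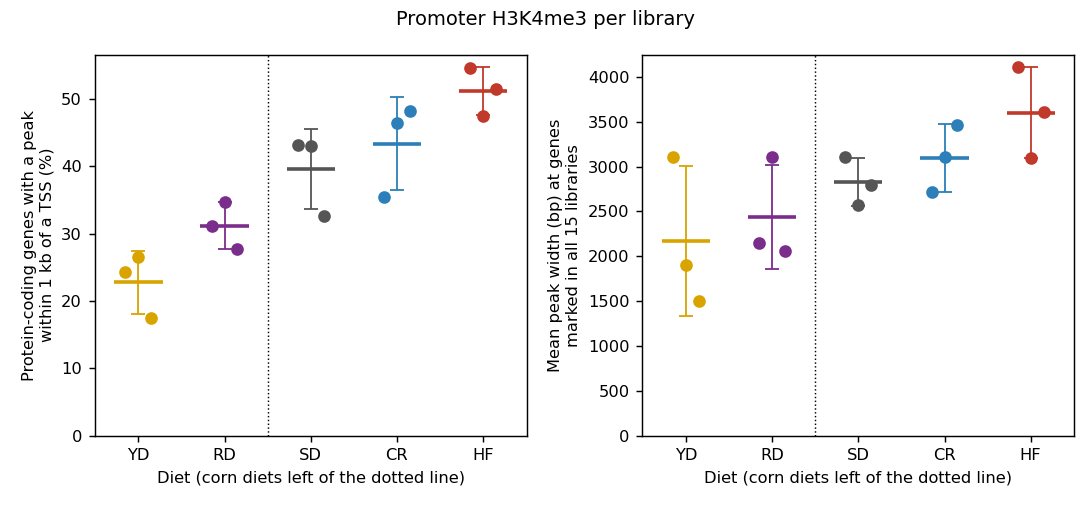
Percent of all protein-coding genes that were marked in a library (left) and mean peak width at the 2059 genes marked in all libraries (right, bp). Each point is 1 library, horizontal lines are diet means and bars the SD of 3 mice. The corn shares lie between 17.5% and 34.7% and the others between 32.7% and 54.6%, and in width YD_1 and RD_2 lie within the range of the other diets.

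Gene by gene, 8711 genes were marked in no library and 2059 in all, which left 10985 genes that could differ. On corn, 10361 of these (94.3%) were marked in a smaller share of libraries, 595 (5.42%) in a larger share and 29 in the same share, with a median difference of -33.3 percentage points. A Fisher's exact test of 6 against 9 libraries gave an unadjusted p under 0.05 and a lower share on corn for 2963 genes, which is 27.0% of those tested, and a higher share for 1 gene, 0.00910% of those tested. After adjustment over all genes tested (Benjamini-Hochberg), 50 genes (0.455%) were marked less often on corn and 0 (0%) more often. Each of the 50 had a peak in 0 of 6 corn libraries and in 9 of 9 others, the largest possible contrast (Fisher's exact test, p = 0.0002, adjusted p = 0.0439). The next 190 genes, in 0 of 6 and 8 of 9 libraries, missed the threshold (Fisher's exact test, p = 0.0014, adjusted p = 0.0541). The 50 adjusted calls rest on the full set of libraries. Their number was 0 when any diet group was left out or the TSS had to lie inside a peak, and it was 0 without any 1 library except SD_3 (148 calls) and CR_1 (112 calls).

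Peaks at the 2963 genes were scarcest on YD and most frequent on HF. The YD mice had a peak at 10.4% ± 4.69 of them on average, the RD mice at 25.5% ± 6.00, the SD mice at 72.7% ± 15.8, the CR mice at 82.1% ± 17.9 and the HF mice at 97.1% ± 2.90 (SD, n = 3 each). These shares follow in part from the choice of the genes and were not tested. The order of the diets was the same over all 10985 genes tested, with means of 26.4% on YD, 43.1% on RD, 59.7% on SD, 67.2% on CR and 82.7% on HF. Of the 2963 genes 1207 were marked in no corn library, 1084 in all 9 others, 1301 in more RD than YD mice and 304 in fewer. Of the 10985 tested these counts were 3465, 3304, 5019 and 1060. Without the HF group 431 genes were called. Without 1 library the count was 1685 to 2558, and the largest losses were to 1838 without YD_3, 1837 without CR_2, 1811 without CR_3, 1685 without HF_1, 1802 without HF_2 and 1719 without HF_3.

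**Figure D2:**
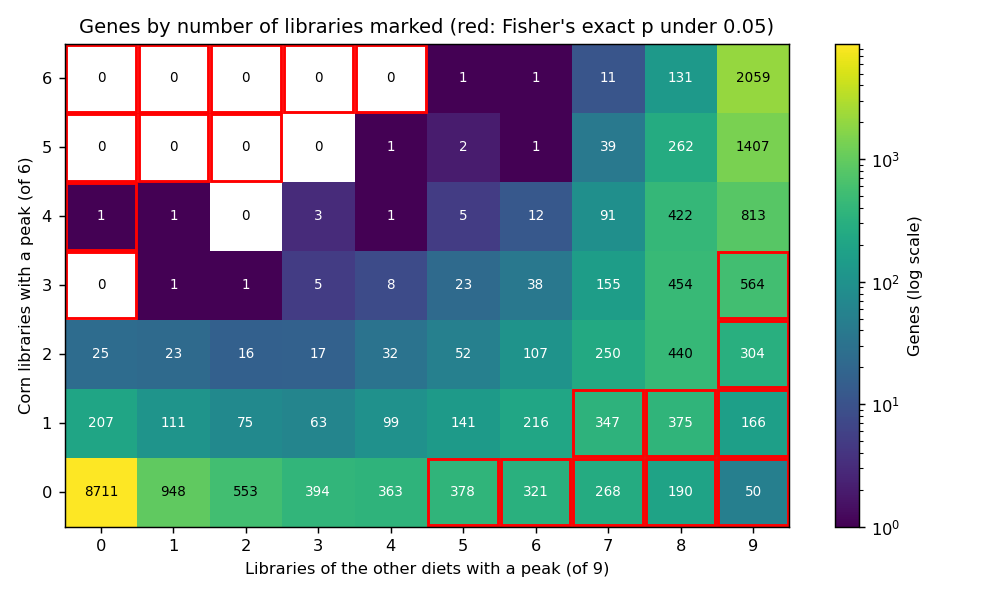
Number of genes for each combination of corn libraries with a peak (vertical axis, of 6) and other libraries with a peak (horizontal axis, of 9), with colour on a log scale. Red frames mark combinations with a Fisher's exact p under 0.05. The frames at the lower right hold 2963 genes, 50 of them in the corner of 0 and 9 libraries, and those at the upper left hold 1 gene. With equal numbers of genes per library these counts are 125 and 131.

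The 50 genes without a called peak in any corn library are described by what they encode, with the 20 of highest mean score on the other diets named. A missing peak does not show that the mark was absent, since it may lie below the calling threshold. Stip1 (HOP), a co-chaperone that links HSP70 and HSP90, has a TSS at base 7039967 of chromosome 19, outside the window printed from RefSeq. The score of its peak lay at the 55.9, 48.5 and 74.0 percentile of marked genes in SD_1 to SD_3, at the 75.5, 78.3 and 47.5 percentile in CR_1 to CR_3 and at the 48.5, 27.9 and 50.2 percentile in HF_1 to HF_3. The peaks were 1400 to 3200 bp wide. Stip1 was thus marked at middle to high scores in 8 of the 9 mice of the other diets, at a lower score in HF_2, and carried no peak in any corn mouse. Hsf4, which encodes a heat shock transcription factor, had the same contrast at percentiles of up to 63.2.

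Among the 20 were also genes of chromatin proteins. Mllt6 (AF17), a partner of the H3K79 methyltransferase DOT1L, had peaks of 600 to 6600 bp whose score percentile ran from 0.724 in SD_3 and 3.38 in HF_2 to 95.6 in CR_1, so that its presence was uniform and its strength was not. Only 3 of its 9 peaks reached over the TSS itself (a difference of -33.3 points with the TSS inside a peak, Fisher's exact test, p = 0.229). Kat6b, a histone acetyltransferase of the MYST family, had peaks of 1000 to 3200 bp at percentiles of 6.37 to 76.6. Dnttip1, a subunit of a histone deacetylase complex, shared a peak with its divergent neighbour Wfdc3 on chromosome 2 (percentiles of 25.2 to 58.8), and the mark cannot be assigned to either gene.

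Genes of liver metabolism and of cell contact were also among the 50. Lsr, the lipolysis-stimulated lipoprotein receptor, shared its peak with Fam187b on chromosome 7 (800 to 4600 bp wide, percentiles of 0.497 to 78.7). Akr1c14 encodes a hydroxysteroid dehydrogenase (percentiles of 7.68 to 61.8), Coq10b a mitochondrial protein that binds coenzyme Q (28.1 to 74.0) and Mrm1 a methyltransferase of mitochondrial ribosomal RNA (26.8 to 68.4). Dsg2 is a desmosomal cadherin (24.4 to 60.4), Crb3 a polarity protein of apical membranes (16.0 to 56.4) and Aplp2 a paralog of the amyloid precursor protein (18.7 to 83.4). The remaining named genes with this contrast were Zcchc3, Dcbld1, Rmc1, Rassf8, Rgl3 and Kctd13, with mean percentiles in the other libraries between 34.1 and 43.3. Crb3 and Zcchc3 each shared a peak with another coding gene, which for Zcchc3 is a divergent neighbour.

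As a group, the 50 genes carried marks of low to middle score on the other diets. The median of their mean score percentiles there was 31.6 (range 13.9 to 56.2), close to the 30.2 of the 2963 genes, against 79.8 for the genes marked in all 15 libraries. Their median peak width was 1600 bp, the same as that of the 2963. A peak shared with another coding gene was found for 10 of the 50 (20%), near the 19.6% of the 2963 and the 20.3% of all genes tested. A wider window added almost no peak on corn, since one lay within 3 kb in 1 of 300 pairs of gene and corn library, and 49 genes had none. In the other libraries the TSS lay inside a peak in 364 of 450 pairs, and for 16 genes in all 9 libraries.

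Mucl2 was the only gene marked more often on corn by the unadjusted test. This mucin-like gene on chromosome 15 had peaks in YD_1, YD_2, YD_3 and RD_2 (3600, 1600, 600 and 11800 bp wide, score percentiles of 27.9, 18.0, 18.1 and 98.6) and in no other library (Fisher's exact test, p = 0.0110, adjusted p = 0.0892). These 4 libraries carry consecutive serial numbers in their names, and RD_1 and RD_3, which lacked the peak, lie outside that run, so that at Mucl2 diet and an order of preparation, if the numbers record one, cannot be told apart. RD_2 stood apart from the YD libraries at this locus in width and score. With peaks within 3 kb counted, the difference was 38.9 points (Fisher's exact test, p = 0.287), and the call was also lost with equal numbers of genes and when the HF, CR, SD or YD group was left out. The genes next in order did not pass the test (Fisher's exact p between 0.0889 and 0.329). Among them were Cyp4f37, a cytochrome P450 (4 of 6 against 1 of 9 libraries), Ank1, the ankyrin of the red cell membrane (6 of 6 against 5 of 9, with 0 of 3 HF mice), Sult2a8, a sulfotransferase (2 of 6 against 0 of 9), and Dio1, the deiodinase that activates thyroid hormone in liver (5 of 6 against 4 of 9). The others were Cntn6, Wdr63, Prl3b1, Pcdhgb1 and Bicd1.

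**Figure D3:**
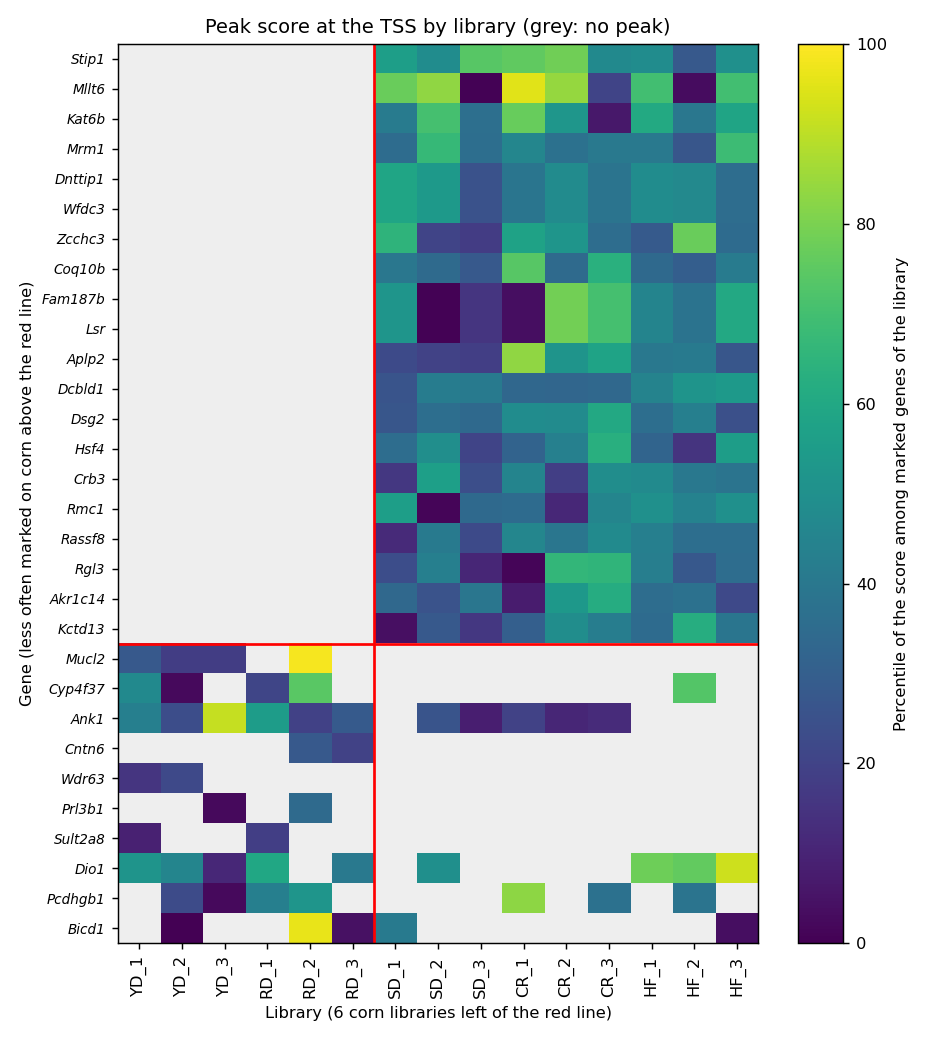
Score percentile of the peak at each named gene (rows) in each library (columns), among the marked genes of that library, with grey for no peak. The 20 genes above the red line had no peak in the 6 corn libraries and 1 in each of the 9 others, and of the 10 genes below it only Mucl2 passed an unadjusted Fisher's exact test.

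Because the corn libraries marked fewer genes altogether, the comparison was repeated with the 3811 genes of highest peak score in every library, the number in the library with the fewest. Of 7335 genes that could then differ, 125 (1.70%) were marked less often and 131 (1.79%) more often on corn at an unadjusted Fisher's exact p under 0.05, in place of 2963 and 1. Because every library then holds the same number of genes, the mean share marked is the same in both groups (17.5%), so that a near balance of the directions follows from the procedure and is no result. The same centring underlies every equal-number value given for a gene list, which is a share relative to all genes and not a change in the amount of mark. None passed adjustment in either direction (smallest adjusted p = 1 by Fisher's exact test). Of the 125 genes, 54 were also among the 2963. Of the 50 genes, 30 were among the 3811 in no library, 20 could be tested and 1, Mllt6, kept an unadjusted call (0 of 6 against 6 of 9 libraries, Fisher's exact test, p = 0.0278).

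On the less marked side of the equal-number comparison, genes were named by the lowest p. Ties were broken by high score ranks on the other diets, so that high ranks there follow from the choice. Trip10, an adaptor protein of CDC42 signalling, was among the 3811 in 1 corn and 9 other libraries (Fisher's exact test, p = 0.0020). It shares its peak with another coding gene. Its score percentiles over all marked genes were 60.9 to 96.8 in the 9 other libraries, 68.2 in YD_1 and 47.3 in RD_2, and the remaining 4 corn libraries had no peak. Lamtor2, a subunit of the Ragulator complex of lysosomal mTOR signalling, shared a peak with Ubqln4 and had the same counts. Cers2, the ceramide synthase for very long acyl chains in liver, was in 0 corn and 7 other libraries (Fisher's exact test, p = 0.00699). It was marked in 5 corn libraries at percentiles of 7.67 to 42.6 and in all 9 others at 58.5 to 91.4. Cers2 was named by these same scores, so that they are no separate support. Percentiles over all marked genes also come from fewer genes in most corn libraries, so that an equal percentile is not an equal place. Uso1, a tether of vesicles in transport to the Golgi, Man1a2, a Golgi mannosidase, Xrcc3, a recombinational repair protein, Plcd3, Pde8a and C87436 were likewise in 0 and 7 libraries.

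On the more marked side were genes that carried the mark in most livers, and their score percentiles over all marked genes overlapped between the groups. These percentiles are taken among the marked genes of each library, 3811 to 7555 on corn and 7116 to 11875 on the other diets. An equal percentile is therefore mostly a higher place by number on corn, and the overlap does not mean equal places. Gnl2, a nucleolar GTPase of ribosome assembly, was among the 3811 in 6 corn and 0 other libraries (Fisher's exact test, p = 0.0002, adjusted p = 1), while in all it had a peak in 6 corn and 8 other libraries, at percentiles of 29.6 to 64.5 and 7.68 to 62.7. Ash2l, a core subunit of the H3K4 methyltransferase complexes, was in 5 and 0 libraries (Fisher's exact test, p = 0.0020) and was marked in all 15, with mean percentiles of 43.1 on corn and 40.2 on the other diets. Cyp4a14, a fatty acid hydroxylase and known target of the nuclear receptor PPARα, was in 6 and 2 libraries (Fisher's exact test, p = 0.00699). Its percentile was lowest in HF_1, at 1.08, and HF_3 had no peak there. Psmc4, a proteasome ATPase, was in 4 and 0 libraries, as was Vps35l. Mrpl17, Ube2l3, Fam32a and Abhd17b were in 6 and 2. The mean percentile over all marked genes was lower on corn for Ube2l3 (48.8 and 53.2) and Abhd17b (43.2 and 46.5). Since the numbers of marked genes differ, this does not contradict their equal-number counts. Pcdhga5, a clustered protocadherin whose promoters lie close together, was in 5 and 0.

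The genes marked in all 15 libraries were also compared by score. Each was ranked by its score among the 2059 genes of its own library, which makes the mean rank equal in every library, so that a near balance of lower and higher ranks follows from the ranking. The mean rank was lower on corn for 134 genes (6.51%) and higher for 121 (5.88%) at an unadjusted exact permutation p under 0.05, and 0 (0%) passed adjustment (smallest adjusted p = 0.183, exact permutation test). Dnaja1, an HSP40 co-chaperone, had a mean rank percentile of 57.6 ± 24.0 (SD, n = 6) on corn and 89.6 ± 5.86 (SD, n = 9) on the other diets (exact permutation test, p = 0.0002, adjusted p = 0.183). P4hb, the protein disulfide isomerase of the endoplasmic reticulum, had 48.6 ± 15.9 and 83.2 ± 9.97 (exact permutation test, p = 0.000599). Srebf1, a regulator of lipogenesis, had 20.6 ± 13.5 and 64.5 ± 18.2 (exact permutation test, p = 0.000799). In the opposite direction Ndufa3, a subunit of respiratory complex I, had 25.9 ± 18.9 on corn and 3.49 ± 2.18 on the other diets (exact permutation test, p = 0.0004). Marf1, a regulator of RNA in oocyte meiosis, had 62.7 ± 18.9 and 22.8 ± 13.4 (exact permutation test, p = 0.000599). The remaining named genes were Phf12 and Baz2a with a lower rank, and Trappc5 and the neighbours Trove2 and Uchl5, which share a peak, with a higher rank.

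The functions of the genes marked less often were described with 33 gene lists, whose counts are read against the 27.0% of all genes tested. The counts rest on unadjusted Fisher's exact tests, no list was tested as a whole, and none of the 33 had a member marked more often with all deposited peaks. The mitochondrial ribosomal proteins, which translate the subunits encoded by mitochondrial DNA, had 22 of 55 tested members marked less often (40.0%). Of all 78 members, the YD mice had 51, 52 and 33 marked and the RD mice 55, 62 and 51, against 75, 71 and 68 in SD, 67, 76 and 76 in CR and 78, 76 and 77 in HF. The groups did not overlap with all peaks, and with an equal number of genes per library the direction flipped, to 41.9% on corn and 39.9% on the other diets. Mrpl35 had a peak in 0 corn and 8 other libraries (Fisher's exact test, p = 0.0014, adjusted p = 0.0541), and Mrpl11 and Mrpl16 in 1 and 9 (p = 0.0020 by the exact test). In what follows a pair of numbers such as 0 and 8 gives the corn libraries (of 6) and the other libraries (of 9) with a peak. By Fisher's exact test 0 and 7 has p = 0.00699, 1 and 8 or 2 and 9 p = 0.0110, 0 and 6 p = 0.0278, and 0 and 5 or 3 and 9 p = 0.0440. The adjusted p of this test lies between 0.0541 and 0.163 for every called pair but 0 and 9. Pairs given for genes that were not called have larger values of both. The members Atp5d, Atf6b, Dhcr7, Pfkfb1, Chdh, Gamt and Foxa3 share their peak with another coding gene.

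The cytosolic ribosomal proteins and the subunits of oxidative phosphorylation had smaller shares, 4 of 29 (13.8%) and 6 of 40 (15%). Of their members 31 of 60 and 33 of 74 were marked in all libraries, and 39 to 58 and 46 to 65 in the corn libraries and 57 to 60 and 66 to 73 in the others. With equal numbers of genes the second direction flipped (66.2% on corn, 65.2% on the other diets), and the first was 69.2% and 72.8%. Rplp0, the acidic P0 protein of the ribosomal stalk, had a peak in 0 and 8 libraries and Atp5d, a subunit of ATP synthase, in 1 and 9.

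Adhesion and clock genes had shares above that of all genes tested. In the list of integrins and integrin-linked kinase partners 13 of 28 members were marked less often (46.4%), among them the integrin chains Itgav (1 of 6 against 9 of 9), Itga9 (0 and 7), Itga3 (0 and 5) and Itgb1 (3 and 9), and Parva (1 and 8) and Lims1 (0 and 6), the partners of the kinase. The 13 also include Pdk1 (0 and 6), a pyruvate dehydrogenase kinase that is counted in the glucose and pyruvate list as well. Marked members per library numbered 13 to 25 of 45 on corn and 24 to 36 on the other diets, and with equal numbers of genes the shares were 27.4% and 31.9%. The circadian list had 8 of 20 (40.0%), with Tef, a clock-controlled transcription factor (1 and 9), Per2, a repressor of the clock (1 and 8) and Csnk1d, the kinase that acts on PER proteins (2 and 9), among them. Arntl, the partner of CLOCK, was marked in 6 of 6 and 8 of 9 libraries. With equal numbers of genes, 26.8% of the clock genes were marked on corn and 35.7% on the other diets, and no single member was called.

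DNA repair and stress genes were similar. The repair list had 19 of 52 members marked less often (36.5%), of which Polb, the polymerase of base excision repair, was among the 50 (0 and 9). Xpa and Ercc2, factors of nucleotide excision repair, had 0 and 8, and Ogg1, the glycosylase for oxidised guanine, 1 and 8. YD mice had 22, 15 and 10 of the 55 repair genes marked and RD mice 27, 37 and 23, against 31 to 54 on the other diets, where CR_1 with 31 lay below RD_2. With equal numbers of genes the shares were 24.5% and 24.6%. The endoplasmic reticulum stress list had 8 of 20 (40.0%), including the sensors Ern1 (2 and 9) and Eif2ak3 (3 and 9) and the transcription factors Atf3 (1 and 8) and Atf6b (2 and 9), with equal-number shares of 63.9% and 68.2%. The cell cycle list had 11 of 35 (31.4%), with Ccne2 at 0 and 7, and equal-number shares of 22.5% and 23.7%.

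Hepatocyte genes had a smaller share of calls than all genes tested. Of 50 genes for secreted proteins and hepatocyte identity 22 were marked in all libraries, and 3 of 28 tested were marked less often (10.7%). These were Pck1, which controls gluconeogenesis (1 and 8), Foxa3, a hepatocyte transcription factor (3 and 9, with no YD and all RD mice), and Itih1, a plasma protein (0 and 6). Alb was marked in 4 corn and 4 other libraries. The corn libraries had 27 to 45 of the 50 and the others 37 to 50, and with equal numbers of genes the direction flipped (65.7% and 64.7%). Complement and coagulation genes had 6 of 41 (14.6%) and bile acid genes 3 of 22 (13.6%), with equal-number shares of 27.9% and 28.1% and, in the reverse direction, 46.5% and 42.1%.

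Metabolic lists had shares slightly below that of all genes tested. In lipid and cholesterol synthesis 9 of 36 were marked less often (25%), with Pmvk (1 and 9), Dhcr7 (1 and 8) and Lss (2 and 9), enzymes of the sterol pathway, and Srebf2, its regulator (2 and 9). In fatty acid oxidation 7 of 29 were (24.1%), with the peroxisomal oxidase Acox3 (0 and 8) and the thioesterase Acot2 (1 and 8). Glucose and pyruvate metabolism had 10 of 46 (21.7%), with Pklr, the liver pyruvate kinase (1 and 8), and Me2 and Pfkfb1 (0 and 7 each). Glycine, serine, threonine and one-carbon metabolism had 7 of 36 (19.4%), with Chdh, which oxidises choline (0 and 8), and Gamt, which makes creatine (1 and 9). With equal numbers of genes the corn share was lower in lipid synthesis (44.0% and 46.4%), glucose metabolism (37.4% and 39.9%) and the glycine list (35.8% and 42.6%), and the direction flipped in fatty acid oxidation (53.7% and 49.9%).

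Among drug-metabolising genes, the conjugation list had 7 of 26 (26.9%), with Mgst3 (0 and 8), Ephx1 and Gstk1 (0 and 7 each), and the cytochrome P450 list 9 of 47 (19.1%), with Cyp7b1, an oxysterol hydroxylase (0 and 8), and Cyp2r1, a vitamin D hydroxylase (0 and 7). Both directions flipped with equal numbers of genes (22.2% on corn and 20.9% on the other diets, 16.4% and 13.6%). Among nuclear receptors and liver transcription factors 10 of 32 were marked less often (31.2%), with Esrra and Rarb (0 and 8 each) and Pparg (1 and 8), and equal-number shares of 54.0% and 59.6%. In the list of H3K4 methyltransferases, their subunits and H3K4 demethylases 4 of 18 were (22.2%). These were Riox1, a histone demethylase (0 and 8), Kdm1a, which removes mono- and dimethyl groups but not the trimethyl mark (1 and 9), Dpy30, a non-catalytic subunit of the methyltransferase complexes (2 and 9), and Smyd2, a lysine methyltransferase (0 and 5), and the direction of the list flipped with equal numbers of genes (47.1% and 45.2%).

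Some lists were marked too rarely for the test. A call of less often needs at least 0 and 5, and the macrophage genes with the largest differences were Clec4f (0 and 2) and Spi1 (1 and 3). That none of 11 Kupffer cell and macrophage genes and none of 385 olfactory and vomeronasal receptors tested was called is therefore no result about these genes. The receptor counts per library ran from 9 to 183 of 1464 on corn and from 4 to 132 on the other diets, with the highest in RD_2 and CR_3, the libraries with the most peaks. Of 24 tested Hox and developmental transcription factors 1 was marked less often (4.17%). Of 278 tested genes for zinc finger proteins named Zfp 77 were marked less often (27.7%), Zfp558 among them after adjustment, a share close to that of all genes. In the equal-number comparison 1 of 212 tested members was marked less often and 8 more often, against 1.70% and 1.79% of all genes tested there, and the direction of the family flipped (28.3% of members marked on corn and 23.7% on the other diets). The lists not described above, which were the proteasome, splicing, transfer RNA synthetases, the Nrf2 response, amino acid breakdown, autophagy, the interferon response and the endothelial, stellate and cholangiocyte genes, had 13.9% to 25.7% of tested members marked less often.

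**Figure D4:**
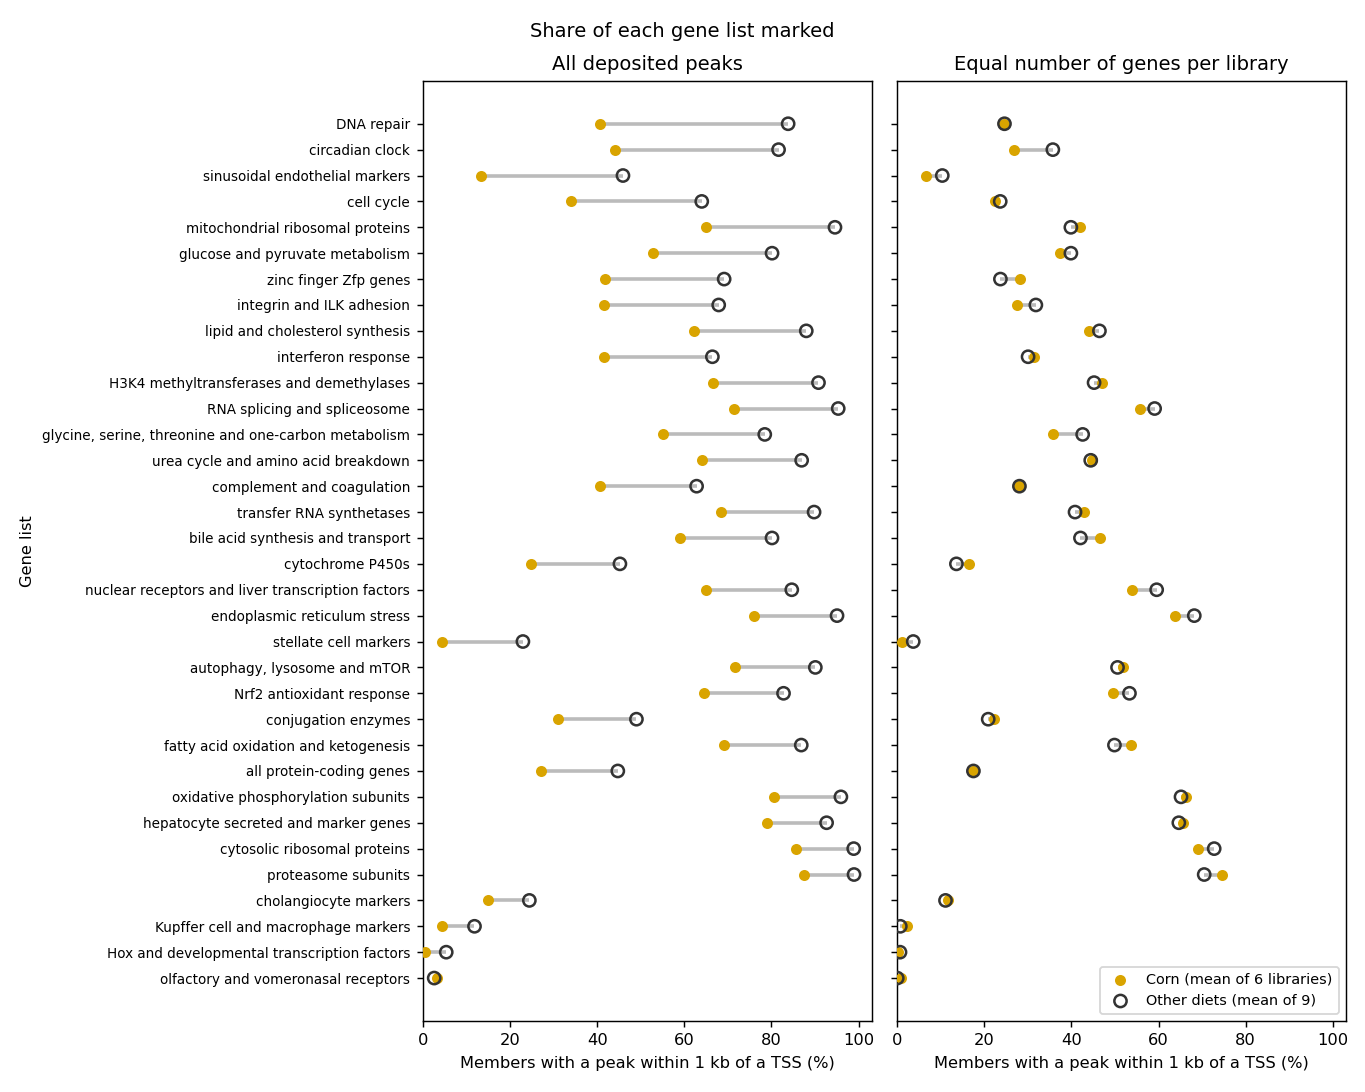
Mean percent of the members of each gene list that were marked, over the 6 corn libraries (filled) and the 9 other libraries (open), with all deposited peaks (left) and with the 3811 highest-scoring genes of every library (right). With all peaks the corn mean is lower in every list except the olfactory and vomeronasal receptors, whereas with equal numbers of genes the direction flips in several lists, such as the mitochondrial ribosomal proteins (41.9% on corn, 39.9% on the other diets).

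The promoter sequences of the genes marked less often were also compared, as a description without a test, in the 300 bases around 1 TSS of each of the 21755 genes. The ratio of observed to expected CpGs had a median of 0.802 in the 50 genes and 0.769 in the 2963, against 0.731 in all genes tested, 0.815 in genes marked in all libraries and 0.232 in genes marked in none. The GC box was found on either strand in 74% of the 50 promoters, 67.8% of the 2963 and 59.8% of all tested. The ETS core was found in 26% (13 of 50), 15.3% and 15.4%, and TATAAA in 6%, 4.96% and 8.66%. In the equal-number comparison the ETS core was found in 14.4% of the promoters marked less often and in 34 of the 131 marked more often. A match is a match of letters and not a bound site.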

How the data were processed

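PAT-ChIP-seq of H3K4me3 gave 1 library for each of 15 mouse livers. The authors mapped 50 bp single-end reads with bwa (mm10), kept with samtools those of MAPQ 1 or more on chromosomes 1 to 19 and X after removing duplicates, and called peaks per library, without pooling, with SICER2 (fragment 200 bp, window 200 bp, gap 400 bp, FDR under 0.05). Versions of these tools are not given in the sources used here. The deposited value of each peak is a score, to which every enriched window adds the negative natural logarithm of its chance under a Poisson background, which is not scaled between libraries and was used only within a list. The depth behind single peaks was not used here, so that errors are those between mice and no interval for counting error is given. Reads per list were recovered from the scores of single-window peaks with an assumed effective genome fraction of 0.74.

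Diets and replicate numbers were taken from the labels, and corn (YD, RD) was compared with the other diets (SD, CR, HF). Fisher's tests used scipy 1.17.1, tables pandas 2.3.3 on numpy 2.4.6, and plots matplotlib 3.10.9, under Python 3.11.15. TSSs were those of GENCODE M21 (139486 transcripts of 53843 genes, 21755 protein-coding). Genes with a peak in 1 to 14 libraries were tested with a two-sided Fisher's exact test and Benjamini-Hochberg adjustment. Values per library were tested by exact permutation of the labels, two-sided by the absolute difference of means, over 5005 assignments. The tests were checked on simulated data.

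The members, lists and tests were chosen with earlier results of these data known. Named genes were the 20 marked less often with the lowest p (ties broken by score rank in the other libraries), the 10 marked more often, 10 each under the equal number of genes, up to 3 per direction of each list and the 5 in each direction by score rank. Gene models named Gm with digits or ending in Rik and the olfactory list were not named. Members of a list outside this rule were chosen after their values were seen. Of 3327 list entries 3324 matched a gene. Promoter windows around the most often marked TSS were read from GRCm38.p6.

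The alternatives were TSSs within 3 kb or inside a peak, equal numbers of peaks (7825) or genes (3811) per library, peaks at or above the median score, peaks of at least 600 bp, other sets of genes tested, chromosomes 1 to 19, the ChIP form of name, other scales of width and peak number, permutation within replicate numbers, and leaving out each diet or library. Reads, signal profiles and expression were not analysed here.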

Additional observations from a re-analysis of the deposited data

Results flagged for a closer look

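The lowest or highest library of a group was singled out by its distance to the nearest other library, divided by the range of the group. This ratio had to exceed Dixon's 95% critical value. There were 76 comparisons of a measure within the 6 corn or the 9 other libraries. This gave 12 cases, or 15.8%, where chance gives about 1 in 20. The measures share genes and libraries and are not independent.

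Among the corn libraries RD_2 had 32131 peaks against at most 14454 in the others, and 183 marked olfactory and vomeronasal receptors against at most 31. YD_3 had the fewest marked genes of 3 lists, with 39 cytosolic ribosomal protein genes against 51 to 58, 46 subunits of oxidative phosphorylation against 60 to 65, and 24 genes of fatty acid oxidation and ketogenesis against 33 to 37.

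Among the other libraries HF_1 had 11 Kupffer cell and macrophage genes against 0 to 2, and 9 stellate cell genes against 1 to 5. CR_1 had 35 marked genes of fatty acid oxidation against 41 to 47, 32 of lipid and cholesterol synthesis against 41 to 49, and 24 of glycine, serine, threonine and one-carbon metabolism against 34 to 43. SD_3 had 9 marked clock genes against 17 to 22, and 40 genes of autophagy, lysosome and mTOR signalling against 48 to 56. SD_3 and CR_1 were also the other libraries with the smallest shares of marked genes, and YD_3 that of the corn libraries. Whether these values have a common cause was not tested.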

How the results depend on the processing

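The difference in the share of marked genes kept its direction and stayed under the threshold in every alternative run, with -19.3 to -15.8 points when 1 library was left out. The cause of the changes below was not tested. The 50 adjusted calls became 0 with the TSS inside a peak, equal numbers of peaks or of genes, peaks at or above the median score, all coding genes tested, the ChIP form of name and without HF, CR, SD, YD or RD, and 406 among genes in 3 to 12 libraries, where fewer genes are tested. Without 1 library they numbered 0 to 148. The 2963 unadjusted calls became 1508 with equal numbers of peaks, 125 with equal numbers of genes, 1222 in the ChIP form, and 431, 826, 1292 and 1157 without HF, CR, SD and YD. Without 1 library they numbered 1685 to 2558. Mucl2, the 1 gene marked more often, was joined or replaced in counts of 8 (equal peaks), 131 (equal genes), 2 (median score), 12 (without YD) and 2 (without RD), and there were 0 with the TSS inside a peak and without HF, CR or SD, and 1 to 2 without 1 library. The promoter share of peaks differed by -28.9 points with equal peaks and -20.8 points at the median score (exact permutation p = 0.0002 and 0.0166), and by -15.1 to -7.65 points without 1 library. The number of peaks reversed without YD, to 1158.4, and lay between -7540 and -2131 without 1 library. The width difference was -857 bp in the ChIP form and -651 bp without HF, and -1032 to -693 bp without 1 library. The count of score ranks that differed after adjustment was 0 in every alternative run. Same-numbered mice were different animals, and of 30 same-numbered pairs none had a correlation of deviations over 0.1 (-0.0663 to 0.0794), and 7 of 15 libraries correlated best with their own number, so the numbers were not taken as pairing. With the replicate block (1000 assignments) the share had p = 0.002 and the width p = 0.018 (exact permutation tests), 2139 genes were marked less often before and 0 after adjustment. Depth limits what a missing peak means, since a gene without a peak may carry the mark below the calling threshold.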
